A study of Drosophila melanogaster with 12 samples.

Results

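Of 16637 transcripts measured in whole Drosophila melanogaster, 31 (0.186%) had much higher values in males than in females and yet mid-range values in females. They were chosen on the deposited log2 expression values: a median of at least 12 over the 6 male arrays, a median of at least 10 over the 6 female arrays, and a male median at least 2 above the female median. On the linear scale, the ratios of male to female medians ran from 4.01-fold to 15.3-fold. The flies were virgins aged 4 days from 6 separate populations of genetic background IV, 3 evolved under monogamy and 3 under polygamy for 65 generations. Each population gave 1 array of males and 1 array of females, so that monogamy males, polygamy males, monogamy females and polygamy females were measured in 3 arrays each (n = 3). All groups were reared on standard cornmeal medium, and the labels name no transgene or further treatment and no number of flies per sample. The arrays were 1-colour NimbleGen arrays of Cy3-labelled total RNA, and their number limits the precision.

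In insects, transcripts with much higher levels in males than in females come largely from the testis and from the accessory glands and ducts that make seminal fluid, tissues that a female lacks. A transcript that is male-biased but also present in females can instead be made in tissues that both sexes have, such as muscle, fat body, gut and nervous system, or in different tissues of each sex. Under monogamy a male meets no rivals and a female has no choice of mate, while polygamy keeps competition among males, so the regimes differ in the selection placed on traits of each sex. In whole flies, fewer cells of a type and less RNA per cell cannot be told apart.

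The members carry FlyBase transcript identifiers. Of the 16637 identifiers, 44 could be given a symbol through RefSeq gene names (assembly Release 6), and 0 of these 44 were members, so no gene name, role or sequence is given for any member. Markers of testis, accessory gland and ejaculatory duct, ovary and egg, muscle, fat body, mitochondria and dosage compensation were looked up as 7 lists, of which 0 had a matched transcript. The tissue source of the members and the identity of the whole-fly samples could therefore not be checked against marker genes.

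Some arrays stood apart. The mean correlation of polygamy female 3 with the other females was 0.733 over all transcripts, where each of the other 5 reached 0.894 to 0.924. Its 5th percentile of 5.42 also lay above theirs (4.30 to 4.43). Monogamy male 1 correlated with the other males at 0.925, and the other 5 males at 0.958 to 0.969. Some members were named for a regime difference or an interaction. Where leaving out 1 of these arrays moved that value by over 1.5 times, the value without it is given as well.

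The members split plainly by sex, which is how they were chosen and is given as a description only. Over the members, the male median ran from 12.06 to 14.30, with 16 of 31 at least 1 above the minimum, and the female median ran from 10.01 to 11.76, with 21 of 31 less than 0.5 above the minimum. The median female value corresponded to 17.1% of the male value on the linear scale, within a range of 6.55% to 24.9%. Values of different transcripts depend on their probes as well as on RNA amount, so the order of members by value is not an order of abundance. All 31 passed the test between the sexes (limma, adjusted p under 0.05), where 21.3% of all transcripts were called higher in males, and nothing is read from this because the rule used the contrast.

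The label of well expressed in females holds only in a loose sense. The median of all transcripts lay between 9.87 and 10.28 in the female arrays, so that the minimum of 10 is near the middle of the table. In females 22 of the 31 members ranked below the 55th percentile of all transcripts, and 3 had a median of 11 or more. In males the members ranked between the 80.7th and the 99.7th percentile.

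The female minimum and the size of the sex difference decided membership, since together they already require a male median of at least 12. The members nearest to the female minimum had female medians of 10.01 and 10.04, and the nearest transcripts below it, otherwise eligible, had 9.9995 and 9.9983. On the sex difference the nearest members had 2.00 and 2.03, and the nearest excluded transcripts 1.97 and 1.94. On the male minimum the nearest members had 12.06 and 12.11, and by this arithmetic no transcript that met the other criteria could lie below it. Membership was therefore narrow on the female side, with 7 members within 0.1 above the minimum and 9 excluded transcripts within 0.1 below.

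FBtr0086343 and FBtr0086342 had the largest sex differences. FBtr0086343 stood at 13.91, 14.08 and 14.18 in monogamy males, at 14.20, 14.02 and 13.98 in polygamy males, at 9.74, 9.94 and 10.18 in monogamy females and at 10.05, 10.49 and 11.60 in polygamy females. Its male and female medians differed by 3.93, a 15.3-fold ratio, and the groups of each sex lay far apart, with polygamy female 3 as the highest female. FBtr0086342 differed by 3.87 between 14.08 in males and 10.21 in females, a 14.7-fold ratio.

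FBtr0082351 and FBtr0082362 had the highest male medians, 14.30 and 14.17. FBtr0082351 stood at 13.94, 14.40 and 14.38 in monogamy males, at 14.39, 14.22 and 14.16 in polygamy males, at 10.54, 10.74 and 11.48 in monogamy females and at 10.98, 10.75 and 12.34 in polygamy females. Its lowest male value belonged to monogamy male 1 and its highest female value to polygamy female 3, and the sexes did not overlap. FBtr0082362 followed nearly the same values, with 10.56 to 11.33 in monogamy females and 10.77 to 12.21 in polygamy females.

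FBtr0082603 and FBtr0082651 had the highest female medians, 11.76 and 11.47. FBtr0082603 stood at 13.63, 13.88 and 13.76 in monogamy males, at 13.77, 13.70 and 13.86 in polygamy males, at 11.72, 11.68 and 11.88 in monogamy females and at 11.80, 11.83 and 11.19 in polygamy females. It was the steadiest member in males, with an SD within groups of 0.10, and the sex difference of 2.00 was the smallest of the set. FBtr0082651 ranged from 13.29 to 13.60 in males and from 10.53 to 11.69 in females.

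**Figure D1:**
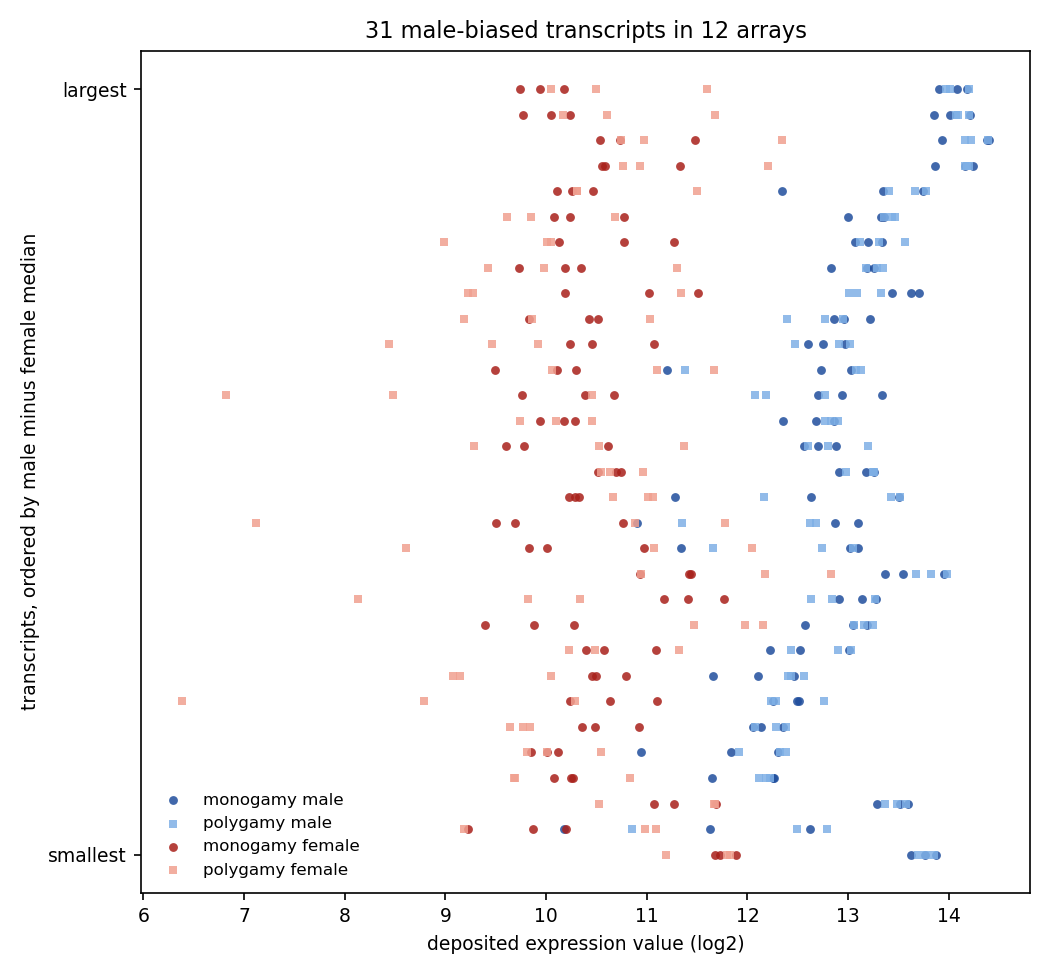
Deposited log2 value (x axis) of the 31 transcripts, 1 row each, ordered from the largest male minus female median at the top to the smallest at the bottom; each point is 1 array, coloured by group. In 27 rows every male point lies right of every female point, and the female points spread more widely than the male points in most rows.

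In 27 of the 31 members every male array lay above every female array, which held for 15% of all transcripts; the rule favours such members. The 4 exceptions, FBtr0075350, FBtr0077637, FBtr0077638 and FBtr0087566, were singled out after their values were seen. The overlap came from low values in males as well as from high values in females. FBtr0087566 stood at 10.18, 11.63 and 12.62 in monogamy males, at 12.50, 10.85 and 12.79 in polygamy males, at 9.22, 10.20 and 9.87 in monogamy females and at 11.09, 10.98 and 9.18 in polygamy females. The males of this transcript covered a range of 2.61, and monogamy male 1 and polygamy male 2 lay below polygamy female 1.

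Some members carry neighbouring identifiers, and these were compared after their values were seen. FBtr0086342 and FBtr0086343, numbered 1 apart, differed by a median of 0.06 over the 12 arrays and by at most 0.12 in any array. FBtr0077637 and FBtr0077638, also 1 apart, differed by a median of 0.29 and by up to 1.49, in polygamy female 3. FBtr0089324 and FBtr0089326, numbered 2 apart, differed by a median of 0.74, with FBtr0089324 higher in 12 of 12 arrays. The files do not say whether such members belong to 1 gene or share probes, so whether the 31 members are independent measurements is unknown. Over all 465 pairs of members the median difference was 0.72, and the closest pair after FBtr0086342 and FBtr0086343 was FBtr0082351 and FBtr0082362 (0.10).

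Members varied less among male arrays than among female arrays. The SD within the regime groups had a median of 0.24 over the members in males and of 0.59 in females, and it was larger in females for 26 of the 31 members. Over all transcripts the medians were 0.37 in males and 0.56 in females. In 620 transcripts that met the male minimum and the sex difference but had a female median below 10, they were 0.22 and 0.93. In 2740 transcripts that met both minimums but had a sex difference below 2, they were 0.20 and 0.33. Without polygamy female 3 the female medians were 0.41 over the members and 0.29 over all transcripts. Male ranges stayed below 1 in 23 members and reached 2 or more in 3, while 11 members reached a range of 2 or more among the females. The shares of all transcripts for these counts, and for the 26 members above, were not computed.

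FBtr0077637 and FBtr0075770 varied most among females. FBtr0077637 stood at 9.50, 9.69 and 10.77 in monogamy females and at 10.88, 11.78 and 7.12 in polygamy females, so that polygamy females held both its highest and its lowest female value. It stood at 10.90, 13.10 and 12.87 in monogamy males and at 12.63, 11.35 and 12.68 in polygamy males. FBtr0075770 stood at 11.10, 10.24 and 10.64 in monogamy females and at 8.79, 10.29 and 6.38 in polygamy females, while its male values kept between 12.23 and 12.76. In both transcripts polygamy female 3 was the lowest female by more than 2.

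FBtr0087566 and FBtr0077637 varied most among males, with an SD within groups of 1.14 and 1.01. They belonged to 5 members with an SD of 0.8 or more in males, the others being FBtr0075350, FBtr0077638 and FBtr0273413, which were singled out after their values were seen. In all 5, monogamy male 1 and polygamy male 2 lay below the other 4 males. FBtr0075350 stood at 11.20 and 11.38 in these arrays and between 12.73 and 13.13 in the other males. FBtr0273413 stood at 11.28 and 12.16 against 12.63 to 13.52.

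Including smaller gaps, 8 of the 31 members (25.8%) were lower in monogamy male 1 and polygamy male 2 than in the other 4 males, against 18.4% of all transcripts. Among the 620 transcripts that met the male minimum and the sex difference but had a female median below 10, the share was 24.5%, close to that of the members. The arrays belong to different regimes, so the pattern does not follow regime. Monogamy male 1 alone was the lowest male for 21 of 31 members (67.7%), against 29.1% of all transcripts. What sets these arrays apart was not tested.

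**Figure D2:**
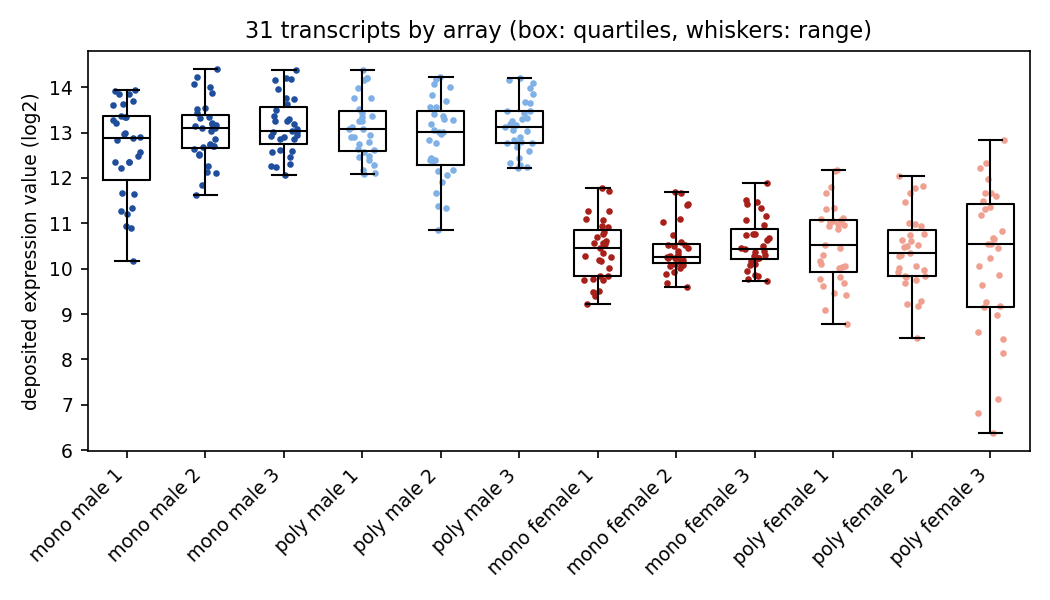
Deposited log2 values of the 31 transcripts in each of the 12 arrays (points), with a box for the quartiles, a line for the median and whiskers for the range. Male array medians lie between 12.88 and 13.13 and female array medians between 10.26 and 10.54; monogamy male 1 and polygamy male 2 reach down furthest among males, and polygamy female 3 has the widest box.

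By array, the median of the members was 12.88, 13.10 and 13.03 in monogamy males, 13.08, 13.01 and 13.13 in polygamy males, 10.46, 10.26 and 10.43 in monogamy females and 10.53, 10.34 and 10.54 in polygamy females. The group means of these array medians were 13.00 ± 0.11, 13.07 ± 0.06, 10.38 ± 0.11 and 10.47 ± 0.11 (SD, n = 3 each). The regimes overlapped in males and in females. In polygamy female 3 the median was ordinary but the quartiles were not, at 9.17 and 11.43. The array was the lowest female for 11 members (35.5%), against 36.7% of all transcripts. It was the highest for 11 others (35.5%), against 36.3%, so these shares were close to those of the whole table.

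The first regime comparison asked whether the members differed between monogamy and polygamy in males. None passed: 0 of 31 members and 0% of all transcripts (limma, Benjamini-Hochberg over all transcripts), with 0 members at an unadjusted p under 0.05, where 1.32% of all transcripts stood. Differences of monogamy minus polygamy ran from -0.57 to 0.65 over the members, and their median was -0.10, beside 0.02 over all transcripts. By sign, 25 of 31 were lower under monogamy (80.6%), against 47.9% of all transcripts. This balance rested on monogamy male 1: without it 16 of 31 were lower (51.6%), against 55.2% of all transcripts, and the median was -0.01. The 3 arrays of each regime did not overlap for 2 of 31 members (6.45%), against 7.75% of all transcripts.

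FBtr0089326 and FBtr0089324 were the members with the smallest p-values among those higher in monogamy males, and neither passed. FBtr0089324 stood at 13.70, 13.44 and 13.63 under monogamy and at 13.09, 13.01 and 13.33 under polygamy. The regimes did not overlap, and the difference was 0.45 (SE 0.53), smaller than its error. The fit pools the spread of males and females, and the female values of this transcript covered 9.22 to 11.51. FBtr0089326 differed by 0.65 (SE 0.71), between 12.99 ± 0.32 and 12.34 ± 0.38 (SD, n = 3 each), with monogamy male 2 at 12.70 below polygamy male 3 at 12.77.

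Among members lower in monogamy males, FBtr0084219 and FBtr0075821 had the smallest p-values, and neither passed. FBtr0084219 stood at 10.94, 11.84 and 12.31 under monogamy and at 12.39, 11.92 and 12.33 under polygamy, a difference of -0.51 (SE 0.35). FBtr0075821 stood at 11.66, 12.11 and 12.46 against 12.57, 12.40 and 12.43, a difference of -0.39 (SE 0.31). In both the lowest value was monogamy male 1, and without it the differences were -0.14 and -0.18.

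In females the same comparison gave larger differences in both directions, and again no member passed. The female minimum of the rule rests on these same female values, and a member can meet it through its higher regime. The fit pools the spread of both sexes, which was larger in females for 26 of the 31 members. The SEs and p-values of the female differences therefore draw in part on the steadier male arrays. The count was 0 of 31 members against 0.0601% of all transcripts (limma), and at an unadjusted p under 0.05 it was 9 of 31 (29.0%) against 29% of all transcripts. Of these 9, 7 were higher under monogamy, beside 16.1% of all transcripts, and 2 were lower, beside 12.9%. The differences ran from -2.01 to 2.17, with 16 members higher and 15 lower under monogamy, and the median was 0.01, beside 0.06 over all transcripts. The regimes did not overlap for 7 members (22.6%), against 38.2% of all transcripts. Without polygamy female 3 the number was 13 (41.9%), against 58.1% of all transcripts. Without polygamy female 1 or monogamy female 3 it was 11 (35.5%), against 44.4% and 44.9%.

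FBtr0075126 came closest to a call. In females it stood at 9.40, 9.88 and 10.28 under monogamy and at 12.15, 11.47 and 11.98 under polygamy, so that every monogamy female lay more than 1 below every polygamy female. In males it stood at 12.58, 13.05 and 13.19 under monogamy and at 13.25, 13.06 and 13.16 under polygamy, which overlap. The female difference was -2.01 (SE 0.30, limma adjusted p = 0.0515), between 9.85 ± 0.44 and 11.87 ± 0.35 (SD, n = 3 each). The monogamy mean lay below the female minimum of 10, so this transcript met the rule through the polygamy females. With the population as a random block, which pairs the male and female arrays of a population, the adjusted p was 0.0481 (limma). Without polygamy female 1 or polygamy female 2 the limma adjusted p was 0.0328 and 0.0258, at differences of -1.87 and -2.21. With the female arrays fitted alone the limma adjusted p was 0.186, and without monogamy female 1 it was 0.291, at a difference of -1.79. Over the alternatives other than array weights, its limma adjusted p ran from 0.0243 to 0.340 and was under 0.05 in 4 of them.

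FBtr0086342 was the other member lower in monogamy females by the smallest p-values. It stood at 9.77, 10.05 and 10.24 under monogamy and at 10.17, 10.61 and 11.68 under polygamy, which overlap, and the difference of -0.80 (SE 0.35, limma adjusted p = 0.162) did not pass. Without polygamy female 3, its highest female array, the difference was -0.37.

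On the other side, FBtr0083888 and FBtr0075821 were higher in monogamy females without passing. FBtr0083888 stood at 11.77, 11.41 and 11.17 under monogamy and at 9.82, 10.34 and 8.13 under polygamy. The difference of 2.02 (SE 0.48, limma adjusted p = 0.125) rested in part on polygamy female 3, and without that array it was 1.37. FBtr0075821 stood at 10.80, 10.46 and 10.49 against 9.08, 10.05 and 9.15, a difference of 1.16 (SE 0.31, limma adjusted p = 0.125). In both transcripts every monogamy female lay above every polygamy female. Their polygamy female means, both 9.43, lay below the female minimum of 10, so both met the rule through the monogamy females. Without polygamy female 2, 6 of 31 members passed in females, beside 2080 of all transcripts (12.5%), among them FBtr0075126, FBtr0083888 and FBtr0075821. Without polygamy female 1 it was 2 members, beside 201 of all transcripts.

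**Figure D3:**
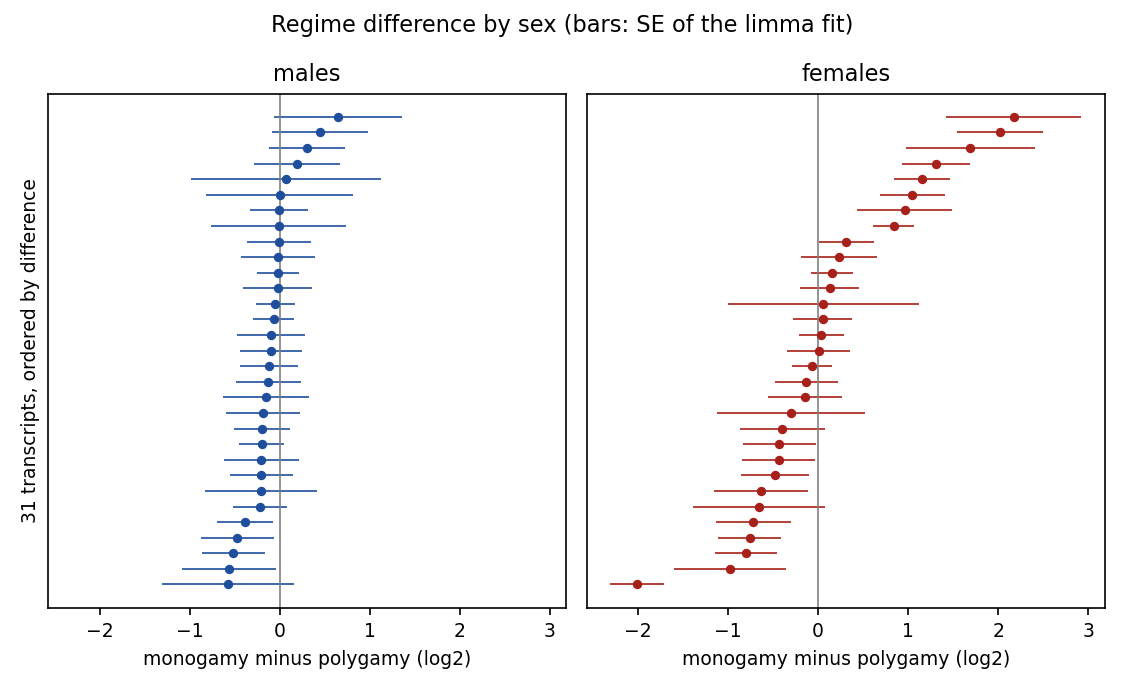
Monogamy minus polygamy difference (log2, x axis) of the 31 transcripts in males (left) and females (right), each panel ordered by its own differences. Bars give the SE of the limma fit, which pools the spread of both sexes. Male differences lie between -0.57 and 0.65 and female differences between -2.01 and 2.17; no transcript passed the adjusted threshold in either sex.

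**Figure D4:**
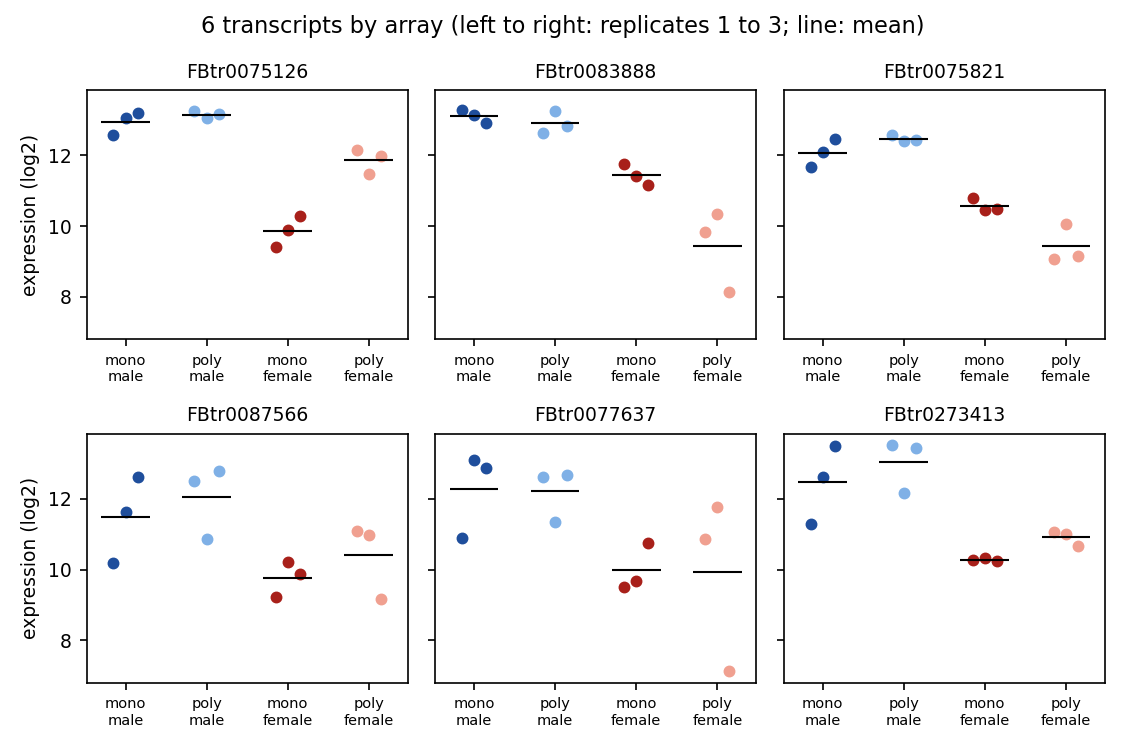
Deposited log2 values (y axis) of 6 transcripts in the 4 groups, 1 point per array and a line at the mean. In females the upper row (FBtr0075126, FBtr0083888, FBtr0075821) separates the regimes without overlap; in males the lower row (FBtr0087566, FBtr0077637, FBtr0273413) has low values in monogamy male 1 and polygamy male 2.

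When the male and female arrays of each population were averaged first, 0 of 31 members and 0% of all transcripts passed (limma), and 3 members (9.68%) were at an unadjusted p under 0.05 against 15.1% of all transcripts. FBtr0075126 differed by -1.12 (SE 0.26), FBtr0083888 by 1.11 (SE 0.36) and FBtr0089326 by 1.17 (SE 0.40), each at an adjusted p of 0.318 (limma). With a population left out these ran from -1.29 to -0.91, from 0.76 to 1.42 and from 0.84 to 1.60. FBtr0089326 differed by 1.69 in females and 0.65 in males. It stood at 9.76, 10.39 and 10.68 in monogamy females and at 10.46, 8.48 and 6.82 in polygamy females. The female difference rested in part on polygamy female 3, its lowest female, and its value without that array was not computed. FBtr0273413, the other lower member, differed by -0.60 (SE 0.34, limma adjusted p = 0.341), and by -0.30 without monogamy population 1, whose male array stood at 11.28 against 12.63 and 13.51 in the other monogamy males. In females it stood at 10.29, 10.33 and 10.23 under monogamy and at 11.06, 11.02 and 10.66 under polygamy, without overlap. Its male values overlapped widely.

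The last comparison asked whether the sex difference of the members differed between the regimes. The rule pools the regimes, but its female minimum rests on the same female values and can be met where 1 regime lies below it. Averaged over arrays, the male minus female difference ran from 1.49 to 4.10 under monogamy and from 1.29 to 3.94 under polygamy. It was larger under monogamy in 14 members (45.2%), against 48.4% of all transcripts, and larger under polygamy in 17. The difference reached 2 in both regimes in 18 members. The rule favours this count, and its share of all transcripts was not computed. The interaction passed for 0 of 31 members and 0% of all transcripts (limma, smallest adjusted p among the members 0.862). At an unadjusted p under 0.05 there were 6 members (19.4%), against 3.56% of all transcripts. The share was 12.6% among the 620 transcripts described above, with a female median below 10. It was 2.88% among 2740 transcripts that met both minimums but had a sex difference below 2. Of the 6, 1 was positive, beside 1.59% of all transcripts, and 5 were negative, beside 1.98%. In each of the 6, the female mean of 1 regime lay below the minimum of 10. It was 9.85 under monogamy in FBtr0075126, and 9.27 to 9.75 under polygamy in the other 5. The share of 19.4% therefore draws on values that the rule used, and nothing is read from it. The median interaction was -0.04 over the members and -0.03 over all transcripts, beside 0.89 over the 620 and -0.24 over the 2740 transcripts.

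The interaction was 1.80 (SE 0.42) for FBtr0075126, whose sex difference was 3.09 under monogamy and 1.29 under polygamy. It was 0.75 (SE 0.50) for FBtr0086343, and 0.31 without polygamy female 3. For FBtr0075821 it was -1.55 (SE 0.44), between sex differences of 1.49 and 3.04. FBtr0086593 stood at 10.93, 10.49 and 10.36 in monogamy females and at 9.77, 9.84 and 9.64 in polygamy females, with 12.06 to 12.38 in males. Its interaction was -0.91 (SE 0.32), with a sex difference of 1.59 under monogamy and a larger one under polygamy. None of these 4 passed, and each had an adjusted p of 0.862 (limma).

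**Figure D5:**
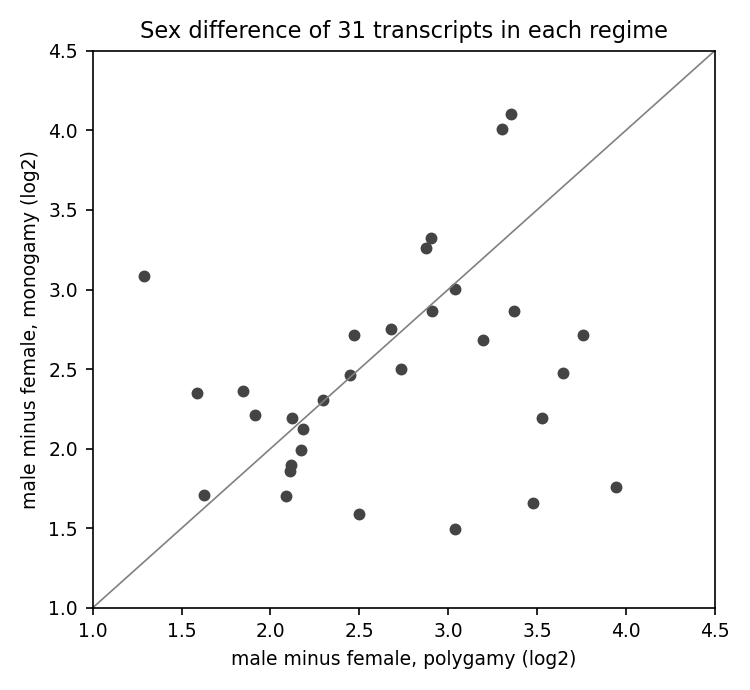
Male minus female difference of group means (log2) of the 31 transcripts under polygamy (x axis) and monogamy (y axis), with the line of equal values. Of the points, 14 lie above the line and 17 below; no interaction passed the adjusted threshold.

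Within populations, the male array could be set against the female array of the same population. The median sex difference over the members was 2.07, 2.42 and 2.52 in the monogamy populations and 2.38, 2.93 and 2.71 in the polygamy populations. The sex difference was positive in all 6 populations for 27 of 31 members and at least 2 in all 6 for 6 members. The rule chose the members on these same values, so the counts are a description only. Their shares over all transcripts were not computed. In monogamy population 1 and polygamy population 2, whose male arrays held the low values described above, 4 members each had a difference below 1, and in polygamy population 2 the lowest was -0.43.

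The members were last set beside transcripts that shared all but 1 criterion, as a description without a test. The 620 transcripts with the same male level and sex difference but a female median below 10 lay a median of 1.24 above the other females in polygamy female 2 and 1.85 above in polygamy female 3. The median deviation of the 31 members was -0.20 and -0.15 in these arrays. In polygamy female 1 the 620 transcripts had a median deviation of -0.32, and in the monogamy females 0.13, -0.52 and -0.30. The rise was thus not shared by all polygamy arrays, and polygamy female 3 had the raised 5th percentile given above. In females the regime difference, which rests on these arrays, had a median of -1.05 over the 620 transcripts, with 84.4% lower under monogamy. Over the members it was 0.01, with 48.4% lower. In the 2740 transcripts with the same levels in both sexes as the rule asks but a sex difference below 2, it was 0.29, with 29.4% lower. In males the members were nearer to the 620 transcripts, of which 74.8% were lower under monogamy (median -0.11) and of which monogamy male 1 was the lowest male in 56.6%.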

How the data were processed

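RMA expression values on a log2 scale, 1 per transcript and array, were used as deposited by the authors; RMA is named in the submitters' processing notes and the log2 scale was read from the range of the values. The sources used here do not give the RMA software, its version, the annotation or which arrays were normalized together, and no detection calls were used. The table held 12 columns, all matched to samples by their labels. RNA-Seq of heads, which the series' design text names, was not analysed here. The members, lists, tests and rule for named members were chosen with earlier results of these data known. That rule took the members with the highest medians, the largest sex difference, the largest SD in each sex and, for each contrast, the 2 smallest p-values in each direction. No sequence was printed because no member has an annotation here.

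The limma package (3.58.1, under R 4.3.3) fitted 4 groups at once to all 16637 transcripts, with p-values adjusted by the Benjamini-Hochberg method at 0.05; the averaged contrast used population means. The fits were checked on simulated data for the size of planted differences. Those data had independent errors of equal spread in every array, unlike the arrays here, so the check covers the computation only. Since the labels give separate populations, p-values rest on the spread among populations and arrays alike. A shared subject label pairs the male and female array of a population; deviations from group means correlated at 0.53, -0.07 and 0.40 in the monogamy and 0.09, 0.07 and -0.18 in the polygamy populations. Alternatives were other normalizations, a filter, another prior, array weights, blocks (statmod 1.5.0), single-sex fits and leaving out each array.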

Additional observations from a re-analysis of the deposited data

Results flagged for a closer look

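Dixon's test of a single extreme value at the 95% level was applied to the 6 arrays of a sex, for 40 sets of values (17 named members and the median and quartiles of all members, in each sex). An extreme array was found in 4 sets. The level of 1 in 20 holds for sets not chosen on their values. The named members were chosen on these same values, each set mixes the regimes, and the sets share the same arrays. The count is therefore not weighed against that rate.

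In monogamy male 1, FBtr0075126 stood at 12.58 against 13.05 to 13.25 in the other males, and FBtr0082362 stood at 13.86 against 14.17 to 14.24. In polygamy female 3, FBtr0082603 stood at 11.19 where the other females had 11.68 to 11.88, and the 25th percentile of the members was 9.17 against 9.83 to 10.21. These are the arrays whose correlation with the others of their sex was lowest over all transcripts, 0.925 and 0.733.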

How the results depend on the processing

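Differences of the named members kept their direction under every alternative run. Counts of members past the threshold were 0 in males, averaged over the sexes and for the interaction, under all alternatives but array weights. In females the count was 1 with a trended and robust prior (beside 0.090% of all transcripts) and 1 with the population as a random replicate block (beside 0.066%), both times FBtr0075126, and 0 to 6 when single arrays were left out. With array weights estimated from these data, 8 members passed in males, 20 in females, 16 averaged over the sexes and 15 for the interaction, beside 54.7%, 70.4%, 65.1% and 32.9% of all transcripts; the estimation of weights stopped before convergence, and monogamy male 2 received 108 and polygamy female 3 0.0219. Members without overlap of regimes numbered 1 in males and 8 in females when quantiles were equalized, whether across the 12 arrays or by sex. The shares of all transcripts under these normalizations were not computed. With an array left out, the counts were 2 to 9 in males and 7 to 13 in females. The highest counts, 9 without monogamy male 3 (29.0%) and 13 without polygamy female 3 (41.9%), stood beside 29.9% and 58.1% of all transcripts. With an array left out, the median difference of the members ran from -0.19 to -0.011 in males and from -0.14 to 0.082 in females, and the median interaction from -0.34 to 0.00029. Replicate number as a block gave 0 members in each regime comparison; the numbers are shared across regimes as a number only. The rule itself gave 89 members at a sex difference of 1.5 or more, 17 at 2.5 or more and 24 to 42 with an array left out. Within polygamy arrays alone it gave 34, of which 12 were among the 31, and within monogamy arrays 28, of which 20 were.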
